A study of Canis lupus familiaris with 15 samples.

Results

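Natural prepartum luteolysis was compared directly with luteolysis induced by an antigestagen, in the contrast “luteolysis over antigestagen”. A gene entered the comparison when its reads averaged 10 or more per dog in the luteolysis or the antigestagen group, which held for 14473 of the 23630 genes in the table. The comparison covers 8 of the 15 dogs. A gene with few reads could thus enter through 1 group alone. Through luteolysis alone 525 genes entered, of which 51 passed the test given below, all as higher in luteolysis, and through the antigestagen alone 162 genes entered, of which 7 passed it, all as higher there. For these genes the choice and the difference are not independent, and their values are a description. Among the genes named here they are AFP, ANKRD1, AOC1, CCL13, CCL20, CD1A6, POU2AF1, PRSS45, WNT1, WNT2 and WNT7A through luteolysis and HNF4A through the antigestagen.

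All dogs were healthy cross-breed bitches between 2 and 8 years old, mated 2 days after ovulation if pregnant, and the corpora lutea (CL) came from ovariohysterectomy. Luteolysis was sampled in 3 pregnant dogs (Amy, Kimba and Senta) that received no drug. They were operated on at the prepartum fall of progesterone (P4), once repeated plasma values late in pregnancy lay under 2 to 3 ng/ml. The antigestagen group held 5 pregnant dogs (Citir, Suzan, Birnur, Seran and Zeynep), treated between days 40 and 45 with aglepristone at 10 mg/kg in 2 applications 24 h apart, with surgery 24 h after the last. Treatment and gestational stage therefore differ together between the groups and cannot be told apart. Another 5 untreated dogs at mid-gestation (days 35 to 40) give the background beside some of the results, and they and 2 non-pregnant dogs in luteal regression entered the model that estimates the spread. Each dog gave 1 library. The dogs were covered by animal permits of 2 institutions, the labels do not say which dog came from which, and the part of collection site was not tested.

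In the dog, the P4 of pregnancy comes from the CL and not from the placenta. It acts on the uterus and the luteal cells themselves through a nuclear receptor. Placental prostaglandins rise shortly before birth, at the time when P4 falls steeply. An antigestagen such as aglepristone occupies the P4 receptor without activating it, so that hormone action ends while the hormone is still in the blood. Luteolysis itself combines loss of steroid output with breakdown of the capillary bed, remodelling of the extracellular matrix (ECM) and entry of immune cells.

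Total counts ran from 8558743 (Citir) to 23505897 (Kimba). Expression is given as CPM, which are counts scaled to a common library size, in the order Amy, Kimba, Senta for luteolysis and Citir, Suzan, Birnur, Seran, Zeynep for the antigestagen. CPM compares dogs for a gene but not genes with each other, because gene length is not taken into account. Log2 ratios are luteolysis over antigestagen, positive when the gene was higher in luteolysis, with their standard error (SE). Differentially expressed genes (DEG) had a p-value below 0.01 and a Benjamini-Hochberg adjusted p-value below 0.1 in edgeR's two-sided quasi-likelihood test. In whole CL tissue, fewer cells of a type and less RNA per cell cannot be told apart.

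The groups differed in 687 of 14473 genes (4.75% DEG), of which 452 (3.12%) were higher in luteolysis and 235 (1.62%) were higher after the antigestagen. The read minimum let in 51 DEG through luteolysis alone and 7 through the antigestagen alone, so the sizes given next do not rank the directions. Among DEG higher in luteolysis the median log2 ratio was 1.34 and 78 genes exceeded 3, against a median of −1.06 and 8 genes beyond −3 in the other direction. Over all genes tested the median log2 ratio was 0.02, and the middle 50% of genes lay between −0.28 and 0.33. In 609 genes (4.21%) every luteolysis dog was above every treated dog, and in 511 (3.53%) every luteolysis dog was below. Of these, 190 and 191 were DEG, whereas in 262 of the DEG higher in luteolysis the groups overlapped.

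Amy lay apart from the other luteolysis dogs. On the first principal component of the 8 dogs, which held 42.4% of the variance, Kimba and Senta were at 82.5 and 71.7, whereas Amy was at −32.4, between treated dogs at −69.3 to 10.4. On the third component, with 12.3% of the variance, Amy was at −61.3, apart from the treated dogs at −13.9 to 37.9 and from Kimba and Senta at 9.22 and −2.7. Across genes, Spearman's rank correlation was 0.975 between Kimba and Senta and 0.905 and 0.923 between Amy and each of them, and it was 0.948 to 0.960 between Amy and the 5 treated dogs. Genes are not independent replicates, and no p-value belongs to these values. The counts of every pair of the 8 dogs differed by far more than sampling noise (chi-square per degree of freedom of at least 33.8), and no pair looked like a duplicate.

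**Figure D1:**
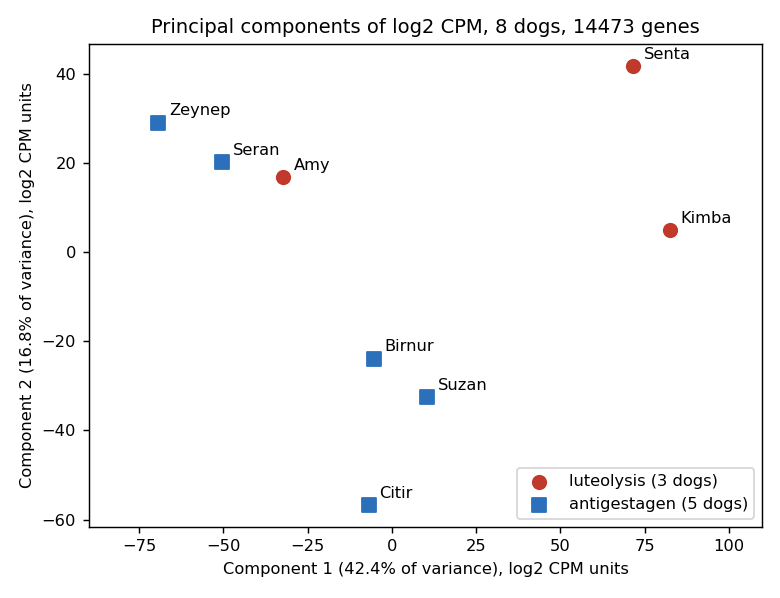
Scores of the 8 dogs on the first and second principal components of log2 CPM over the 14473 genes, with the share of variance on each axis. Circles are luteolysis dogs and squares antigestagen-treated dogs: Kimba and Senta stand alone on the right, and Amy stands on the left next to Seran.

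The number of DEG turned on single dogs. Without Amy, 2169 of 14620 genes were DEG, 1112 (7.61%) of them higher in luteolysis and 1057 (7.23%) higher after the antigestagen, and 634 of the 687 DEG of all dogs were among them. Without Amy the limit of p below 0.01 was the stricter one, so that a gene could lose its call with an adjusted p still below 0.1. Without Kimba the number fell to 229, and without Senta to 6. These 6 were SPINK5, ANKRD1 and AFP, higher in luteolysis, and CD248, RDH16 and the unnamed gene ENSCAFG00000000492, higher after the antigestagen. When a treated dog was left out it ranged from 320 (Birnur) to 651 (Citir). With the 8 dogs alone in the model, hence with the spread estimated from them only, 3 genes were DEG (CD248, JUN and ENSCAFG00000000492), 643 had an unadjusted p-value below 0.01 and 1972 one below 0.05. DESeq2's Wald test and limma-voom with quality weights gave 1486 and 2833 DEG. The calls below are those of edgeR with all dogs in the model, and each of them apart from those of SPINK5, ANKRD1, AFP, CD248, RDH16 and ENSCAFG00000000492 was lost when Senta was left out.

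**Figure D2:**
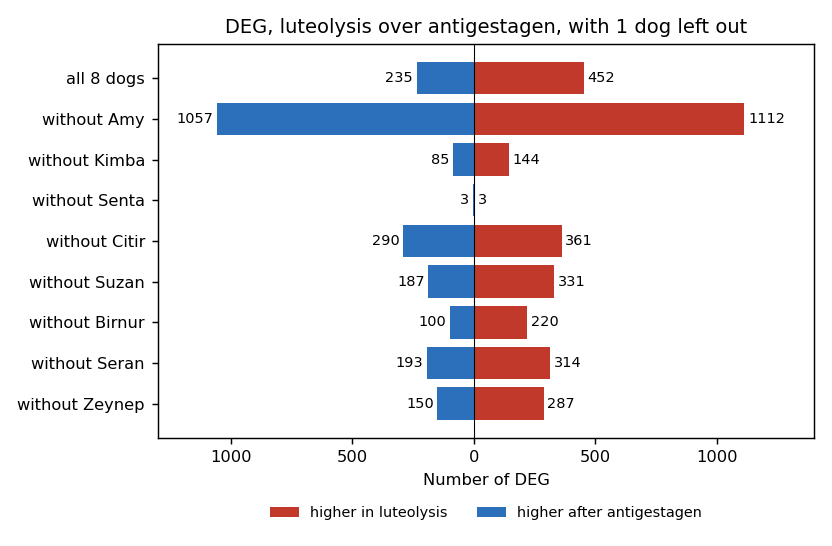
Number of DEG (horizontal axis) in “luteolysis over antigestagen” with all 8 dogs and with each dog left out, to the right for genes higher in luteolysis and to the left for genes higher after the antigestagen. The number is largest without Amy (1112 and 1057) and smallest without Senta (3 and 3).

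Amy showed few of the differences that Kimba and Senta had in common. Of 1105 genes that were DEG higher in luteolysis without Amy and could be followed in Amy's library, 538 (48.7%) were above the mean of the treated dogs in Amy and 561 below it, while over all genes tested 52.6% were above. Of the 1057 DEG higher after the antigestagen without Amy, 567 (53.6%) were below the treated mean in Amy, against 47.4% of all genes. Amy lay beyond every treated dog on the side of Kimba and Senta in 22.5% and 21.3% of these genes, against 16.7% and 15.7% of all genes tested. With Kimba left out in the same way, 141 of 144 (97.9%) and 72 of 85 DEG (84.7%) pointed in Kimba as in Amy and Senta. Over all genes tested the shares were 54.0% and 46.0%. The DEG of this check were called with Amy in the fit, so the 2 checks are not like for like. For DEG called with all 8 dogs, the median log2 difference from the treated mean over the 452 higher in luteolysis was 0.30 in Amy, 1.5 in Kimba and 1.72 in Senta. Over the 235 higher after the antigestagen it was −0.76, −1.08 and −1.25. These DEG were called with Amy in the fit, which favours genes in which Amy agreed, so the medians do not compare the directions. Over the DEG called without Amy, Amy's median was −0.01 for those higher in luteolysis and −0.04 for those higher after the antigestagen. The log2 ratios of the other dogs had medians of 1.25 and −1.15 there. In 27 of the 687 DEG the log2 ratio moved by over 1.5 times in fold without Amy, in 33 without Kimba, in 39 without Senta and in 2 to 18 without 1 treated dog, and none changed sign. For DEG whose log2 ratio is given below, the moved values are given with them. Those that moved so without Amy were INSL3 (to −4.27), PIM2 (to −2.98), CCL3 (to 5.62), CCL13 (to 6.65), SPINK5 and TIGIT. The comparison of held-out dogs was chosen after Amy's position had been seen.

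**Figure D3:**
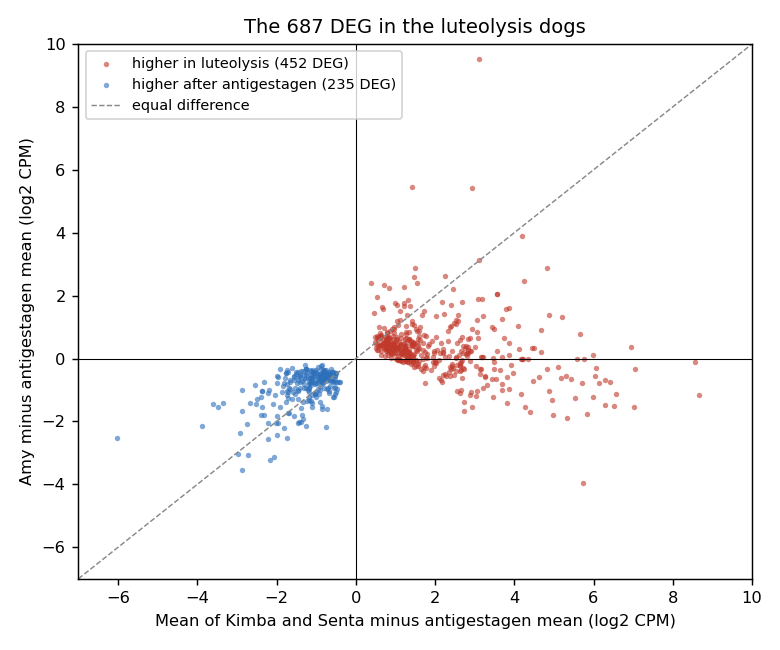
Each point is 1 of the 687 DEG, with the mean of Kimba and Senta minus the mean of the treated dogs on the horizontal axis and Amy minus the same mean on the vertical axis, both in log2 CPM. The DEG higher after the antigestagen lie below zero on both axes, whereas many DEG higher in luteolysis lie around or below zero for Amy. All were called with Amy in the fit, so the plot does not compare the directions.

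The treated dogs stayed near the level of mid-gestation in most DEG. Over the 452 DEG higher in luteolysis, the treated mean differed from the mid-gestation mean by a median of −0.04 on the log2 scale and the luteolysis mean by 1.19. The treated mean was the nearer of both to mid-gestation in 425 of these genes (94.0%) and in 202 of the 235 DEG higher after the antigestagen (86.0%), where the medians were 0.16 for the treated and −0.82 for the luteolysis dogs. Over all genes tested it was the nearer one in 67.2%. The DEG were chosen on the luteolysis and treated dogs, so these shares describe them and carry no test.

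Names could be given to 2947 of the tested genes, from the lists of DEG that accompany the study. A gene has a name only if it was called in a contrast of these dogs, and 631 of the named genes (21.4%) were DEG here, 412 (14.0%) higher in luteolysis and 219 (7.43%) higher after the antigestagen. Without Amy the shares were 27.4% and 16.5%. Among named genes every luteolysis dog was above every treated dog in 12.8% and below in 12.4%. Every count over a gene list below is to be read against these shares, and none is independent evidence of a direction. Counts over lists also hung on single dogs. Summed over the 26 pathway lists, 76 members were DEG higher in luteolysis with all dogs, 161 without Amy, 25 without Kimba, 0 without Senta and 0 with the 8 dogs alone in the model, and 29, 50, 15, 0 and 1 were higher after the antigestagen. A gene in more than 1 list counts in each. The luteal genes STAR and CYP11A1 had no paired identifier and were not analysed here.

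Among genes higher in all 3 luteolysis dogs than in any treated dog, that of smallest p-value was RRM2 (ENSCAFG00000003409), the ribonucleotide reductase subunit that supplies deoxynucleotides for DNA synthesis. It was at 4.13, 50.9 and 64.8 CPM in luteolysis and at 2.45, 3.02, 2.83, 0.828 and 2.52 CPM after the antigestagen (log2 ratio of 4.10 with SE 0.62, edgeR adjusted p = 0.0168). Amy was just above the highest treated dog, whereas Kimba and Senta were far above it. ABRACL (ENSCAFG00000000281), a small protein of the actin cytoskeleton, showed the same order, with 32.8, 103 and 177 CPM against 16.6, 27.1, 19.0, 27.7 and 20.3 CPM (log2 ratio of 2.23 with SE 0.35, edgeR adjusted p = 0.0168). MTHFD1L, a mitochondrial folate enzyme that feeds purine synthesis, was instead level across the luteolysis dogs, at 83.5, 79.6 and 87.0 CPM, and the treated dogs were at 44.9, 38.1, 48.7, 34.9 and 34.5 CPM (log2 ratio of 1.05 with SE 0.17, edgeR adjusted p = 0.0168). ABRACL had a log2 ratio of 1.61 without Senta, where its call was lost.

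A gene of adenosine formation and an adenosine receptor were both higher in luteolysis. NT5E (ENSCAFG00000002994), the surface enzyme CD73 that releases adenosine from AMP, was at 11.0, 48.5 and 33.6 CPM in luteolysis, at 4.45, 4.82, 1.96, 5.44 and 5.96 CPM after treatment and at 12.3 ± 5.59 CPM at mid-gestation (mean ± SD, n = 5). The log2 ratio was 2.79 (SE 0.46) with an edgeR adjusted p of 0.0168, and Amy lay inside the mid-gestation range of 5.97 to 19.8 CPM. ADORA2A, the adenosine receptor that dampens immune cells and widens vessels, was at 1.73, 17.8 and 37.0 CPM against 0.556, 2.15, 1.74, 1.66 and 1.31 CPM (log2 ratio of 3.63 with SE 0.63, edgeR adjusted p = 0.0168). For this receptor Amy was within the treated dogs. ADORA2A had a log2 ratio of 2.68 without Senta, where its call was lost.

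The rest of the 12 genes of smallest p-value without overlap had varied functions. MYOF, a membrane fusion protein, was at 334, 625 and 478 CPM in luteolysis and 149 to 221 CPM in treated dogs (log2 ratio of 1.39 with SE 0.22, edgeR adjusted p = 0.0168). SNX10, a sorting nexin of endosomes, was at 214, 522 and 594 CPM and 128 to 195 CPM (log2 ratio of 1.58 with SE 0.26, edgeR adjusted p = 0.0168). The exocytosis protein SNAP25 was at 27.2, 51.2 and 116 CPM against 1.41 to 10.7 CPM (log2 ratio of 3.03 with SE 0.51, edgeR adjusted p = 0.0168). The order of the luteolysis dogs differed between these genes, but Amy was the lowest in each. C1orf21, PRSS45, MRPL17 (mitochondrial ribosome), ZPR1 and SLC16A6 (a monocarboxylate transporter family member) completed the 12, with log2 ratios of 2.18, 4.75, 1.14, 1.23 and 1.39. The calls of all 12 held without Amy and without Kimba, and without Senta their adjusted p ran from 0.104 to 0.160. SNAP25 and PRSS45 had log2 ratios of 2.29 and 3.73 without Senta, where these calls were lost. PRSS45 had a log2 ratio of 5.64 without Zeynep.

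Some large differences were carried by Kimba and Senta and others by Amy. ANKRD1 (ENSCAFG00000007247), an ankyrin repeat protein known as a stretch-induced gene and a target of YAP, was at 0.0751, 109 and 51.9 CPM in luteolysis and at 0, 0.256, 0.0436, 0.355 and 0 CPM in the treated dogs (log2 ratio of 8.41 with SE 1.33, edgeR adjusted p = 0.0168). Amy's value rests on 1 read, against 2746 in Kimba and 895 in Senta, and it lies inside the treated range. SPINK5, an inhibitor of skin proteases singled out after its values were seen, ran the other way within the group, at 458, 7.79 and 3.65 CPM against 0.111 to 1.39 CPM (log2 ratio of 7.80 with SE 1.37, edgeR adjusted p = 0.0168). Without Amy the log2 ratio of SPINK5 was 3.09 and still a DEG. TIGIT, a surface protein of T cells likewise singled out, was at 154, 5.73 and 15.4 CPM against 8.00, 3.38, 0.828, 8.10 and 2.42 CPM (log2 ratio of 3.69 with SE 0.95, edgeR adjusted p = 0.0597). Without Amy the log2 ratio of TIGIT was 1.24 and its call was lost (edgeR adjusted p = 0.358). AFP, the fetal plasma protein alpha-fetoprotein, was higher in all 3 luteolysis dogs, at 7.66, 35.0 and 2.44 CPM against 0, 1.23, 0.218, 0.592 and 1.01 CPM (log2 ratio of 4.59 with SE 0.83, edgeR adjusted p = 0.0184). The calls of ANKRD1 and SPINK5 held with every dog left out in turn, as did those of CD248 and ENSCAFG00000000492, and these were the only 4 DEG for which this was so. ANKRD1 and AFP had log2 ratios of 7.38 and 3.01 without Kimba, where the call of AFP was lost. ANKRD1 had a log2 ratio of 9.02 without Seran.

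The following genes were higher in every treated dog than in any luteolysis dog. They were called with Amy in the fit, which favours genes with Amy on the side of Kimba and Senta. Their sizes and evenness thus do not compare the directions. For DEG called without Amy, Amy's median log2 difference was −0.04 for those higher after the antigestagen and −0.01 for those higher in luteolysis. CD248 (ENSCAFG00000028875), the endosialin of pericytes and stromal fibroblasts, was at 4.50, 5.02 and 4.58 CPM in luteolysis and at 12.9, 18.5, 19.7, 25.8 and 19.7 CPM in the treated dogs (log2 ratio of −2.04 with SE 0.26, edgeR adjusted p = 0.0168). The luteolysis dogs were nearly equal, Amy included, and all lay below the lowest of the 5 mid-gestation dogs, which ranged over 12.1 to 23.5 CPM. SPOCK2 (ENSCAFG00000014413), an ECM proteoglycan, was at 22.5, 26.8 and 20.0 CPM against 60.5, 47.9, 84.4, 112 and 82.7 CPM (log2 ratio of −1.74 with SE 0.27, edgeR adjusted p = 0.0168). LRP5 (ENSCAFG00000010871), a coreceptor for WNT ligands, was at 83.0, 50.8 and 34.5 CPM against 110.2, 151, 171, 140.4 and 194 CPM (log2 ratio of −1.45 with SE 0.26, edgeR adjusted p = 0.0181). In LRP5 Amy was the nearest of the luteolysis dogs to the treated ones, and in SPOCK2 Amy lay between Senta and Kimba.

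The other 9 of the 12 such genes of smallest p-value were DPH7, which takes part in modifying elongation factor 2, the galectin-binding glycoprotein LGALS3BP, KANK4, the syntrophin SNTB1, the epoxide hydrolase EPHX3, the flavin monooxygenase FMO5, the collagen-binding AEBP1, CCDC141 and C1QTNF1. Their log2 ratios were −1.11, −1.59, −1.05, −1.15, −1.45, −0.94, −1.15, −1.50 and −0.94. All 12 calls held without Amy and without Kimba. Without Senta only CD248 was called, and the adjusted p of the 12 ran from 0.041 to 0.186. AEBP1, for example, was at 215, 212 and 138 CPM in luteolysis and 348, 446, 540.3, 327 and 422 CPM after treatment.

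**Figure D4:**
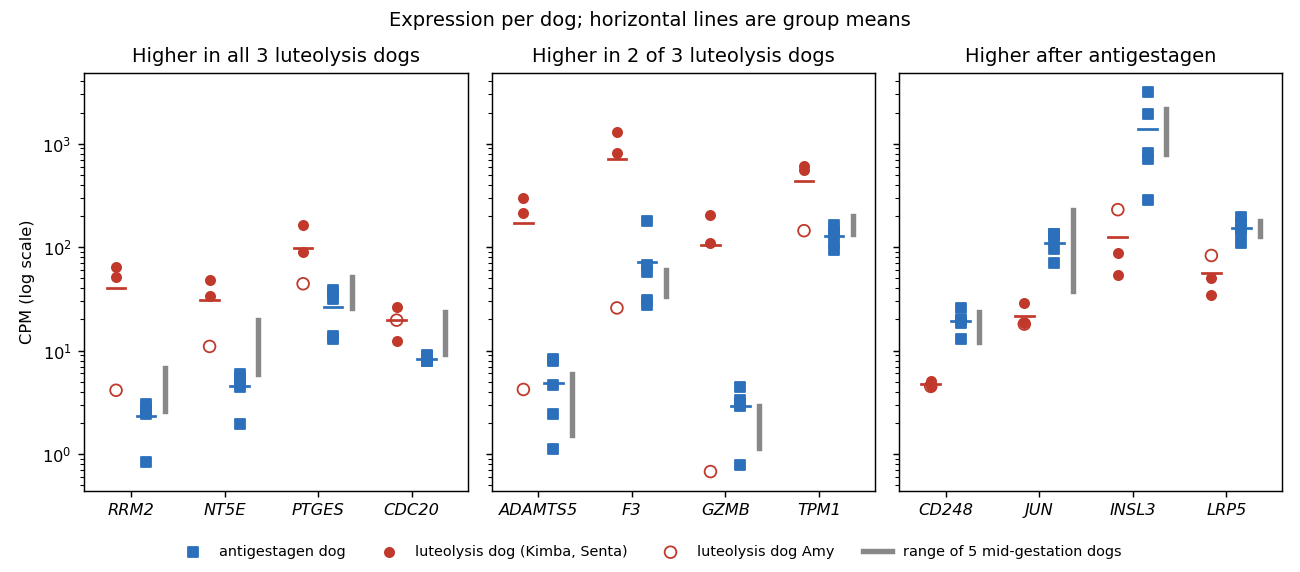
CPM per dog on a log axis for 12 genes, with circles for luteolysis (open for Amy), squares for antigestagen-treated dogs, horizontal lines at the group means and grey bars for the range of the 5 mid-gestation dogs. In ADAMTS5, F3, GZMB and TPM1 Amy lies with or below the treated dogs while Kimba and Senta are far above, and in CD248 and JUN the 3 luteolysis dogs lie together.

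Few genes of the luteal endocrine apparatus could be tested. They were 5 of the 26 listed for steroid synthesis and conversion and 7 of the 36 for cholesterol supply. Only genes called in some contrast of these dogs have a name, so the counts do not describe the whole pathways. By edgeR no DEG was among the 5 tested genes of steroid synthesis and conversion, with a median log2 ratio of 0.41, or the 7 genes of cholesterol supply, with a median of −0.42. In each of these lists 3 genes had an unadjusted p below 0.05, DESeq2's Wald test called 2 and 3 genes, and limma-voom 2 and 3. CYP17A1, which turns progestins into androgens, was at 334, 264 and 111 CPM in luteolysis and 90.9, 110.5, 204, 27.1 and 56.4 CPM after treatment (log2 ratio 1.27, SE 0.51, edgeR adjusted p = 0.2), and the 5 treated dogs, as well as Kimba and Senta, lay below the mid-gestation range of 268 to 809 CPM. The log2 ratio of HSD3B7, a hydroxysteroid dehydrogenase, was 0.41 (SE 0.21) with an adjusted p of 0.307. Without Amy, SREBF1 and SCAP, which together switch on sterol and lipid synthesis, were DEG higher after the antigestagen, with log2 ratios of −2.42 and −1.65. With all dogs they were −1.38 and −1.03.

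INSL3 (ENSCAFG00000032526), a relaxin-like peptide of gonadal steroidogenic cells, fell in luteolysis. It was at 230.1, 87.8 and 53.8 CPM against 287, 817, 718, 3187 and 1951 CPM (log2 ratio of −3.49 with SE 0.74, edgeR adjusted p = 0.0306), and the mid-gestation dogs were at 1455 ± 586 CPM (mean ± SD, n = 5). All luteolysis dogs lay below all treated dogs, although Amy at 230.1 and Citir at 287 CPM were close. Among 16 luteotropic and nuclear receptors, 1 was a DEG in each direction, while 11 had an unadjusted p below 0.05. DESeq2's Wald test called 5 and limma-voom 11, and without Amy 3 rose and 3 fell. FSHR, the receptor of follicle-stimulating hormone, was at 836, 609 and 461 CPM against 744, 1172, 1325, 1508 and 1944 CPM and overlapped between the groups (log2 ratio of −1.08 with SE 0.30, edgeR adjusted p = 0.0743), and THRB, a thyroid hormone receptor, was at 1.8, 17.5 and 15.9 CPM against 3.11, 2.36, 2.13, 1.54 and 0.606 CPM (log2 ratio of 2.59 with SE 0.66, edgeR adjusted p = 0.0557). The prolactin receptor PRLR did not pass the threshold, at 74.8, 82.9 and 95.2 CPM against 121, 175, 160.1, 157 and 149 CPM (log2 ratio of −0.86 with SE 0.26, edgeR adjusted p = 0.1), although every luteolysis dog was below every treated dog. The estrogen receptor ESR1 overlapped between the groups and did not pass it either (log2 ratio of −1.12 with SE 0.36, edgeR adjusted p = 0.123).

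Of 8 genes of the prostaglandin pathway, 2 rose in luteolysis (25.0%, against 14.0% of named genes). PTGES (ENSCAFG00000030838), the terminal synthase of prostaglandin E2, was at 44.2, 90.1 and 163 CPM in luteolysis and 13.7, 13.0, 38.4, 35.9 and 31.5 CPM in treated dogs (log2 ratio of 1.90 with SE 0.41, edgeR adjusted p = 0.0336). All luteolysis dogs were above all treated dogs, with Amy next to Birnur at 38.4 CPM. PTGIS, which makes prostacyclin, was at 28.8, 409 and 362 CPM against 73.5, 85.2, 68.2, 43.3 and 48.1 CPM (log2 ratio of 2.07 with SE 0.52, edgeR adjusted p = 0.0538), and here Amy was below every treated dog.

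Most cytokines and chemokines were above the treated mean in Kimba and Senta, in 21 and 23 of 26 genes, and 8 were so in Amy. Of 26 tested, 4 were DEG with all dogs (15.4%, close to the 14.0% of named genes), all higher in luteolysis, with a median log2 ratio of 1.38. Measured from the treated mean, the median log2 difference over the 26 genes was −0.58 in Amy, 1.73 in Kimba and 2.03 in Senta. Without Amy 14 rose (53.8%, against 27.4%) and 1 was higher after the antigestagen. CCL3, which draws monocytes and lymphocytes, was at 0.0751, 127 and 183 CPM against 5.00, 2.15, 4.97, 1.12 and 2.62 CPM (log2 ratio of 5.03 with SE 1.19, edgeR adjusted p = 0.0462). The neutrophil attractant CXCL8 was the only one of the 4 without overlap, at 86.0, 311 and 282 CPM against 46.7, 4.82, 19.8, 11.0 and 17.5 CPM (log2 ratio of 3.52 with SE 1.05, edgeR adjusted p = 0.0971). The monocyte attractant CCL13 and the macrophage growth factor CSF1 had log2 ratios of 6.06 and 2.13. CCL20 had a log2 ratio of 3.51 and an adjusted p of 0.152 by edgeR, and it was a DEG without Amy (log2 ratio 4.08, edgeR adjusted p = 0.0172), and without Birnur its log2 ratio was 4.73. CCL3 and CCL13 had log2 ratios of 4.32 and 5.38 without Senta, where these calls were lost.

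Cytokine and chemokine receptors as a list gave 6 DEG of 24 (25.0%, against 14.0% of named genes), all higher in luteolysis. Amy was above the treated mean in 9 of the 24. Median log2 differences from that mean were −0.34 in Amy, 1.41 in Kimba and 1.07 in Senta. CCR7, which guides dendritic cells and lymphocytes to lymph nodes, was at 0.676, 207 and 198 CPM against 2.45, 5.43, 12.7, 0.828 and 0.202 CPM (log2 ratio of 4.91 with SE 1.13, edgeR adjusted p = 0.0418). Amy was within the treated dogs and both other luteolysis dogs were far outside. IL17RA, a broadly expressed interleukin receptor, differed little but without overlap, at 104, 171 and 179 CPM against 99.8, 85.6, 82.8, 87.1 and 71.7 CPM (log2 ratio of 0.82 with SE 0.18, edgeR adjusted p = 0.0392). CSF2RA, IL1RL1, IL15RA and TNFRSF12A had log2 ratios of 2.38, 4.51, 1.62 and 2.38. Amy's log2 differences from the treated mean in these genes were 0.188, −1.786, −0.045 and −0.229. IL1RL1 had a log2 ratio of 2.79 without Kimba, where its call was lost. TNFRSF12A had a log2 ratio of 1.65 without Senta, where its call was lost. CCR7 had a log2 ratio of 5.86 without Birnur.

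Antigen presentation divided the luteolysis dogs differently, with Amy and Senta high and Kimba low. Over 14 genes the median log2 difference from the treated mean was 0.83 in Amy, −0.52 in Kimba and 1.01 in Senta. DLA-DQA, a chain of dog MHC class II, was at 1951, 893 and 2044 CPM in luteolysis and 729.7, 473, 945, 449 and 308 CPM after treatment (log2 ratio of 1.49 with SE 0.41, edgeR adjusted p = 0.0735), and its call was lost without Amy (log2 ratio 1.35, edgeR adjusted p = 0.0703). DLA88, the classical class I gene, was higher in every treated dog, at 509.9, 394, 389, 940.5 and 1327 CPM against 151, 84.8 and 214 CPM in luteolysis (log2 ratio of −2.25 with SE 0.55, edgeR adjusted p = 0.0521). The mid-gestation dogs ranged over 114 to 563 CPM. CD1A6, a lipid-presenting molecule, was at 0, 1.98 and 1.68 CPM against 0.222, 0.0513, 0.0872, 0.237 and 0 CPM (log2 ratio of 3.33 with SE 1.00, edgeR adjusted p = 0.0983). Reads of these near-identical and variable genes can be split between copies or lost in alignment, so that their levels are uncertain.

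Interferon and NF-kB genes (28 tested) gave 2 DEG, both higher after the antigestagen: TLR5, the flagellin sensor, at 3.45, 3.69, 4.71, 4.02 and 5.86 CPM against 0.976, 1.54 and 1.51 CPM (log2 ratio of −1.68 with SE 0.41, edgeR adjusted p = 0.0491), and the interferon-induced IFI44L at 35.1, 26.7, 25.7, 34.1 and 51.1 against 12.7, 17.6 and 18.1 CPM (log2 ratio of −1.09 with SE 0.32, edgeR adjusted p = 0.0857). The call of IFI44L was lost without Amy (log2 ratio −0.94, edgeR adjusted p = 0.0997). In this list 15 genes had an unadjusted p below 0.05, and DESeq2's Wald test called 10 and limma-voom 5. Every luteolysis dog was below every treated dog in 6 genes (21.4%, against 12.4% of named genes) and above in 0. Amy was above the treated mean in 1 of the 28, Kimba in 11 and Senta in 12. Without Amy 9 genes of this list rose in luteolysis (32.1%, against 27.4% of named genes) and 3 fell, with a median log2 ratio of −0.48. Among the 9 were RELA, a subunit of NF-kB, and its inhibitor NFKBIA, with log2 ratios of 1.18 and 1.23. Of 16 acute phase and complement genes 2 rose. CD55, which shields cells from complement, was at 189.5, 2290 and 2300 CPM against 73.9, 494, 449, 102 and 206 CPM (log2 ratio of 2.59 with SE 0.65, edgeR adjusted p = 0.0535). The clotting initiator F3 (tissue factor) was at 25.8, 809.7 and 1287 CPM against 57.8, 177, 66.4, 27.3 and 30.7 CPM (log2 ratio of 3.30 with SE 0.83, edgeR adjusted p = 0.0538). The acute phase protein SAA1 was at 89.6, 355 and 305 CPM against 38.8, 41.1, 203, 124 and 37.0 CPM and did not pass the threshold (log2 ratio of 1.49 with SE 0.71, edgeR adjusted p = 0.279). F3 had a log2 ratio of 2.51 without Senta, where its call was lost. F3 had a log2 ratio of 3.96 without Suzan.

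Genes of the actin cytoskeleton gave many DEG, in the largest of the 26 pathway lists by genes tested. Of 48 genes of the actin cytoskeleton and its regulators, 18 rose in luteolysis (37.5%, against 14.0% of named genes) and 1 fell, and without Amy 33 rose (68.8%, against 27.4%) and 2 fell. Without Kimba 7 rose, and without Senta or with the 8 dogs alone 0 did. Median log2 differences from the treated mean were −0.06 in Amy, 0.94 in Kimba and 1.08 in Senta. ACTA1, skeletal muscle actin, was at 0.601, 172 and 59.8 CPM against 1.33, 2.10, 1.48, 0.828 and 0.404 CPM (log2 ratio of 5.93 with SE 1.01, edgeR adjusted p = 0.0168). Since actin genes are close copies of each other, part of these reads may belong to another actin. The actin-stabilising tropomyosins TPM1, TPM2 and TPM4 had log2 ratios of 1.76, 2.30 and 1.56, and TPM1 was at 144, 557 and 608 CPM against 142, 162, 138, 110.2 and 94.0 CPM. MYLK, the kinase that triggers smooth muscle contraction, was at 80.5, 1143 and 1411 CPM against 194, 227, 185, 145 and 115 CPM (log2 ratio of 2.34 with SE 0.59, edgeR adjusted p = 0.0531), with Amy below every treated dog. CAPG, CFL2 and LIMK1, which cap, sever and protect actin filaments, had log2 ratios of 2.36, 1.30 and 1.13. The gene that fell was CDC42EP1, an effector of the GTPase CDC42, at 13.5, 9.25 and 10.4 CPM against 17.0, 24.2, 29.4, 23.2 and 43.4 CPM (log2 ratio of −1.31 with SE 0.29, edgeR adjusted p = 0.0354). ACTA1 had a log2 ratio of 4.58 without Kimba.

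In some actin genes Amy lay on the side of Kimba and Senta. In 6 of the 48 (12.5%, close to the 12.8% of named genes) every luteolysis dog was above every treated dog, and in CDC42EP1 (2.08%, against 12.4%) every luteolysis dog was below. The Arp2/3 subunits ARPC1B and ARPC5, which branch actin filaments, had log2 ratios of 0.81 (SE 0.20) and 0.82 (SE 0.17). ARPC5 was at 37.4, 46.8 and 57.2 CPM against 23.1, 23.9, 25.6, 34.5 and 26.6 CPM. CAPZA1 was at 91.7, 97.2 and 95.7 CPM against 61.7, 70.5, 57.6, 80.7 and 67.3 CPM (log2 ratio of 0.49 with SE 0.15, edgeR adjusted p = 0.0961), and there the luteolysis dogs were level with each other.

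Integrins and focal adhesion genes gave 9 DEG higher in luteolysis of 21 (42.9%, against 14.0% of named genes) and 1 lower (4.76%, against 7.43%). Amy was above the treated mean in 4 of the 21. Median log2 differences from that mean were −0.33 in Amy, 0.91 in Kimba and 0.96 in Senta. Every luteolysis dog was above every treated dog in 1 gene (4.76%, against 12.8% of named genes) and below in 4 (19.0%, against 12.4%). ITGB3 (ENSCAFG00000013735), the beta chain of the vitronectin receptor, was at 25.0, 468 and 267 CPM against 26.5, 36.7, 29.6, 36.7 and 29.2 CPM (log2 ratio of 3.00 with SE 0.52, edgeR adjusted p = 0.0168). Amy was below all treated dogs, and without Amy the log2 ratio was 3.54 with an adjusted p of 7.28e-07. ITGA2, a collagen receptor chain, and SRC, the kinase that relays integrin signals, had log2 ratios of 2.76 (SE 0.64) and 1.53 (SE 0.33). In ITGA2 Amy was within the treated dogs. SRC was at 74.1, 273 and 347 CPM against 78.5, 93.8, 81.6, 82.0 and 63.3 CPM. ITGAE, the chain that tethers lymphocytes to epithelium, did not overlap, at 10.4, 15.8 and 11.9 CPM against 5.56, 5.28, 3.92, 5.74 and 4.14 CPM (log2 ratio of 1.37 with SE 0.24, edgeR adjusted p = 0.0168). The adhesion adaptor LIMS1 had a log2 ratio of 0.80 (SE 0.21), with Amy within the treated dogs. The fibronectin receptor ITGA5 missed the threshold with all dogs (log2 ratio of 1.34 with SE 0.46, edgeR adjusted p = 0.144) and passed it without Amy (1.82, adjusted p = 0.00468). TNS3, a tensin at focal adhesions, was the member that fell, with a log2 ratio of −0.99 (SE 0.23). ITGB3 and ITGA2 had log2 ratios of 2.20 and 1.79 without Kimba, where the call of ITGA2 was lost.

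Of 34 ECM genes 27 had a negative log2 ratio, with a median of −0.71, and 5 were DEG higher after the antigestagen (14.7%, against 7.43% of named genes). Without Amy the balance of DEG turned, with 3 higher after the antigestagen (8.82%, against 16.5%) and 5 higher in luteolysis, at a median of −0.57. Median differences from the treated mean were −1.09 in Amy, −0.03 in Kimba and −0.93 in Senta. Besides SPOCK2, the 5 DEG with all dogs were FBLN2, the elastic fibre protein EMILIN1, the small proteoglycan BGN and THBS3. FBLN2, which binds basement membranes and elastic fibres, was at 413, 408, 721, 751 and 697 CPM after treatment and 332, 256 and 212 CPM in luteolysis (log2 ratio of −1.17 with SE 0.28, edgeR adjusted p = 0.0491). The DEG higher in luteolysis were 3, with TNC and COL8A1 among them. TNC, a matrix protein of wounds and remodelling tissue, was at 28.1, 48.6 and 15.5 CPM against 4.00, 9.23, 2.18, 1.18 and 2.93 CPM without overlap (log2 ratio of 2.97 with SE 0.61, edgeR adjusted p = 0.0284). The calls of BGN and THBS3 were lost without Amy (edgeR adjusted p = 0.082 and 0.0986, with unadjusted p above 0.01). The fibrillar collagen COL1A1 was no DEG (log2 ratio of −1.67 with SE 0.59, edgeR adjusted p = 0.151). TNC had a log2 ratio of 3.61 without Suzan.

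Enzymes that cleave matrix, and their inhibitors, rose and fell side by side, with 6 DEG up (24.0%) and 3 down of 25. MMP1, interstitial collagenase, was at 0.225, 322 and 280.4 CPM against 0.111, 1.54, 3.27, 0.473 and 0.202 CPM (log2 ratio of 7.30 with SE 1.42, edgeR adjusted p = 0.0246). ADAMTS5 (ENSCAFG00000024758), which cleaves aggrecan and versican, was at 4.2, 297 and 213 CPM against 4.67, 8.20, 7.89, 2.42 and 1.11 CPM (log2 ratio of 5.11 with SE 0.86, edgeR adjusted p = 0.0168). In both genes Amy was within the treated dogs. Of the other members higher in luteolysis, PLAUR, the receptor of urokinase, and TIMP3, an inhibitor of metalloproteinases, had log2 ratios of 2.21 and 1.8. Amy's log2 differences from the treated mean were −0.043 in PLAUR and −0.431 in TIMP3. The gelatinase MMP2 was higher after the antigestagen, at 203, 229.8, 203, 122 and 173 CPM against 64.6, 107 and 95.1 CPM (log2 ratio of −1.06 with SE 0.27, edgeR adjusted p = 0.0568), and its call was lost without Amy (log2 ratio −0.88, edgeR adjusted p = 0.0709). ADAMTSL2, which binds microfibrils, was at 14.6, 14.0, 27.4, 13.7 and 16.2 CPM against 3.90, 9.01 and 3.94 CPM (log2 ratio of −1.60 with SE 0.36, edgeR adjusted p = 0.0396). ADAMTS5 and TIMP3 had log2 ratios of 4.46 and 1.18 without Kimba, where the call of TIMP3 was lost. MMP1 had a log2 ratio of 8.20 without Birnur.

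TGF-β and BMP genes (21) gave 2 DEG up and 3 down. INHBA, the activin subunit, was at 44.4, 81.3 and 105 CPM in luteolysis against 36.6, 37.8, 32.7, 15 and 21.2 CPM (log2 ratio of 1.42 with SE 0.32, edgeR adjusted p = 0.0396), and FSTL3, which binds activin, was at 4.2, 41.8 and 41.8 CPM against 4.00, 8.46, 6.49, 8.58 and 5.96 CPM (log2 ratio of 2.12 with SE 0.58, edgeR adjusted p = 0.0719). INHBA did not overlap between the groups, whereas Amy's FSTL3 lay within the treated dogs. CITED2, a transcriptional coregulator, was higher after the antigestagen at 92.3, 92.2, 95.6, 122 and 209 CPM against 57.4, 25.0 and 26 CPM (log2 ratio of −1.76 with SE 0.40, edgeR adjusted p = 0.0396), as were the inhibitor SKI (log2 ratio −0.61, SE 0.18), whose call was lost without Amy (edgeR adjusted p = 0.0911), and the latent TGF-β binding protein LTBP3 (log2 ratio −0.61, SE 0.18). The receptor TGFBR1, the transducer SMAD2 and the inhibitor SMAD7 missed the threshold with adjusted p of 0.118, 0.104 and 0.104 and log2 ratios of 0.90, −0.90 and 1.65. Without Amy all of them passed it.

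In the WNT pathway (18 genes) 3 ligands with few reads were DEG higher in luteolysis, all of them genes that reached the read minimum in luteolysis alone. WNT2 was at 0.375, 1.46 and 1.8 CPM against 0.222, 0.205, 0.0436, 0.118 and 0 CPM (log2 ratio of 3.32 with SE 0.70, edgeR adjusted p = 0.0306), and WNT1 at 0.0751, 4.11 and 3.83 CPM against 0, 0.308, 0.0872, 0 and 0 CPM (log2 ratio of 4.73 with SE 1.15, edgeR adjusted p = 0.0625). WNT7A was read 1, 12 and 19 times in the luteolysis dogs and in total 1 time in the treated dogs, in Seran. LRP5 was the DEG of the list that fell. FZD5, a WNT receptor, was at 8.23, 27.0, 19.6, 13.1 and 13.1 CPM after treatment and 5.63, 4.11 and 5.74 CPM in luteolysis without overlap, yet missed the threshold (log2 ratio of −1.66 with SE 0.56, edgeR adjusted p = 0.137). Its level in the treated dogs was also above the mid-gestation range of 0.925 to 6.69 CPM. WNT1 had a log2 ratio of 6.13 without Suzan.

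Of 18 angiogenic factors and receptors, NT5E and ADORA2A rose. ANGPTL4 and ECE1 fell in luteolysis. ANGPTL4, an inhibitor of lipoprotein lipase that also acts on vessels, was at 46.5, 38.1 and 27.9 CPM against 114, 154, 186, 109 and 319 CPM (log2 ratio of −2.24 with SE 0.44, edgeR adjusted p = 0.0248), with Zeynep the highest of the treated dogs. ECE1, which activates endothelin, was at 148, 169 and 176 CPM against 223, 385, 396, 497 and 442 CPM (log2 ratio of −1.24 with SE 0.31, edgeR adjusted p = 0.0538). Neither overlapped between the groups, and at mid-gestation ANGPTL4 was at 100.5 ± 46.6 CPM and ECE1 at 388 ± 163 CPM (mean ± SD, n = 5).

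Over the cell cycle genes the median difference of Amy was near that of the other luteolysis dogs, though not in every gene. Of 40 tested, 39 had a positive log2 ratio, with a median of 0.86 against 0.19 for all named genes, and in 20 (50%, against 12.8% of named genes) every luteolysis dog was above every treated dog. Median differences from the treated mean were 0.89 in Amy, 0.76 in Kimba and 0.95 in Senta. The number of DEG was 6 (15%, against 14.0% of named genes). CDC20, which starts the exit from mitosis, was at 19.7, 12.5 and 26.4 CPM against 8.00, 8.77, 7.89, 9.11 and 7.88 CPM (log2 ratio of 1.23 with SE 0.31, edgeR adjusted p = 0.0531). The kinase CDK4 was at 109, 83.4 and 124 CPM against 63.5, 65.1, 61.6, 60.1 and 74.7 CPM (log2 ratio of 0.70 with SE 0.16, edgeR adjusted p = 0.0438). RRM2, CCND2, MELK and CKAP2L were the other DEG, and of these only CKAP2L overlapped between the groups. CKAP2L was at 9.61, 115 and 249 CPM against 5.45, 44.1, 13.9, 5.26 and 9.79 CPM, with Amy among the treated dogs. HJURP, a centromere chaperone, did not overlap but missed the threshold, at 6.16, 2.93 and 4.52 CPM against 1.22, 2.10, 2.13, 0.237 and 1.61 CPM (log2 ratio of 1.61 with SE 0.54, edgeR adjusted p = 0.131). The mid-gestation mean was at or above the luteolysis mean in 30 of the 40 genes and above the treated mean in 38, for example at 15.3 ± 6.07 CPM for CDC20 and 5.16 ± 2.61 CPM for HJURP (mean ± SD, n = 5). The exception among the 40 was the spindle gene ASPM, with a log2 ratio of −1.31 (SE 0.42).

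Growth arrest genes (10) gave 1 DEG, the antiproliferative TOB1, higher after the antigestagen at 266, 232, 325, 295 and 439.9 CPM against 217, 96.0 and 119.6 CPM (log2 ratio of −1.11 with SE 0.29, edgeR adjusted p = 0.0612). Of the 10 genes 8 had an unadjusted p below 0.05, and DESeq2's Wald test called 6 and limma-voom 5. CDKN1A, the p21 inhibitor of cyclin-dependent kinases, was at 68.0, 1061 and 1779 CPM against 56.8, 430.3, 286, 96.1 and 135 CPM, overlapped, and missed the threshold with all dogs (log2 ratio of 2.27 with SE 0.77, edgeR adjusted p = 0.137). By edgeR none of 15 apoptosis genes was a DEG, with a median log2 ratio of 0.52, although 9 had an unadjusted p below 0.05, and DESeq2's Wald test and limma-voom called 8 and 9. Without Amy 6 of them rose, among them the survival genes BCL2A1 and BIRC3 and the death-promoting BAK1 and BIK, with log2 ratios of 2.01, 2.15, 0.83 and 1.90.

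Immediate early genes moved both ways. Of 14 tested, 7 had a positive log2 ratio, with a median of 0.28, 1 was a DEG higher in luteolysis and 2 were higher after the antigestagen, and without Amy 5 rose and 2 fell. Median differences from the treated mean were −1.34 in Amy, with 0 of 14 above it, 0.23 in Kimba and 0.87 in Senta. JUN (ENSCAFG00000018897), a subunit of AP-1, was at 18.0, 18.5 and 28.7 CPM in luteolysis and 134, 96.8, 135, 69.6 and 118 CPM in treated dogs (log2 ratio of −2.35 with SE 0.53, edgeR adjusted p = 0.04), and JUND was at 31.3, 18.7 and 30.6 CPM against 101, 70.6, 94.3, 55 and 96.7 CPM (log2 ratio of −1.64 with SE 0.46, edgeR adjusted p = 0.0775). In both all luteolysis dogs were below all treated dogs, and mid-gestation ranged over 37.9 to 227 CPM for JUN. FOS, IER2 and MYC also did not overlap, with log2 ratios of −2.84, −1.57 and −1.46 and adjusted p of 0.126, 0.189 and 0.171. DUSP6, which switches off ERK kinases, rose in luteolysis, at 58.2, 190.5 and 276 CPM against 64.1, 66.5, 87.1, 78.5 and 71.2 CPM (log2 ratio of 1.25 with SE 0.32, edgeR adjusted p = 0.0599). These genes respond within minutes to handling of tissue, and the part of the time between surgery and preservation was not tested.

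Of 14 glucocorticoid-responsive and clock genes, 12 had negative log2 ratios and NFIL3 and ANGPTL4 were DEG. NFIL3, a repressor tied to the circadian clock, was at 41.6, 69.3 and 73.8 CPM against 107, 224, 278, 261 and 451 CPM (log2 ratio of −2.10 with SE 0.52, edgeR adjusted p = 0.0515). Treated dogs lay above luteolysis dogs without exception, and all lay above the mid-gestation mean of 95.8 ± 38.5 CPM. PIM2, a survival kinase, CLCN1, a chloride channel, and the motor protein KIF5C had log2 ratios of −2.09 (SE 0.62), −3.69 (SE 0.92) and −2.61 (SE 0.74) without overlap. KIF5C lost its call without Amy (edgeR adjusted p = 0.083). HNF4A and TMEM65 were likewise higher after the antigestagen (log2 ratio −2.71, SE 0.73, and log2 ratio −1.60, SE 0.32), and CSRNP3 was so with overlap and lost its call without Amy (log2 ratio −1.19, SE 0.35). A further 6 genes named by the study were no DEG by edgeR. The study called genes with DESeq2's Wald test, so its calls and those given here are not like for like. Log2 ratios were 1.74 for AOC1, which breaks down histamine, −1.22 for the elongation factor ELL2 and −1.48 for RASEF. They were −1.28 for the cation channel TRPC4, −1.15 for C10orf10 and −0.47 for the transcription factor YY1. In this order the adjusted p by edgeR were 0.143, 0.148, 0.176, 0.14, 0.175 and 0.183. RASEF was a DEG without Amy (log2 ratio −2.08, edgeR adjusted p = 0.0414). HNF4A had a log2 ratio of −2.01 without Suzan, where its call was lost. KIF5C had a log2 ratio of −1.91 without Zeynep, where its call was lost.

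Glycolysis and hypoxia genes gave 4 DEG of 10, all higher in luteolysis (40.0%, against 14.0% of named genes). PFKFB3, which makes the activator of phosphofructokinase, was at 38.1, 277 and 345 CPM against 61.5, 58.2, 52.4, 37.4 and 40.5 CPM (log2 ratio of 2.14 with SE 0.42, edgeR adjusted p = 0.0248). CA12, a carbonic anhydrase, was at 36.7, 172 and 126 CPM against 14.0, 32.5, 39.8, 19.7 and 17.8 CPM (log2 ratio of 2.16 with SE 0.43, edgeR adjusted p = 0.0248). HK2, which traps glucose in the cell, and the glucose transporter SLC2A1 had log2 ratios of 4.11 and 1.39. In all of them Amy was within the treated dogs, and the median over the 10 genes was −0.04 in Amy, 1.04 in Kimba and 0.99 in Senta. Without Amy the phosphofructokinase genes PFKL and PFKM were DEG higher after the antigestagen (log2 ratios −2.05 and −1.22).

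Of 11 genes of oxidative stress defence, SOD2 and TXN rose without overlap. SOD2 (ENSCAFG00000000671), mitochondrial superoxide dismutase, was at 836, 1491 and 1796 CPM against 452, 374, 529, 721 and 449 CPM (log2 ratio of 1.44 with SE 0.27, edgeR adjusted p = 0.0208), and TXN, thioredoxin, at 21.3, 21.9 and 41.3 CPM against 13.8, 12.2, 14.9, 19.9 and 18.7 CPM (log2 ratio of 0.83 with SE 0.23, edgeR adjusted p = 0.0803). Among 13 ER stress and heat shock genes HSF1, the heat shock regulator, was higher after the antigestagen (log2 ratio of −0.62 with SE 0.18, edgeR adjusted p = 0.0933). Among 13 lysosomal genes PSAP and GAA, which serve the breakdown of sphingolipids and glycogen, were higher after the antigestagen (log2 ratio −0.91, SE 0.24, and log2 ratio −0.71, SE 0.20) and the proton pump subunit ATP6V1C1 was higher in luteolysis (log2 ratio 0.67, SE 0.20). Of 15 histone deacetylases and repressors HDAC3 and SIN3B rose in luteolysis (log2 ratio 0.62, SE 0.15, and log2 ratio 1.67, SE 0.39). SIN3B was at 45.0, 324 and 356 CPM against 70.7 to 81.5 CPM, with Amy below every treated dog, and HDAC3 at 92.7, 131 and 136 CPM against 72.0 to 95.7 CPM, with Amy below Zeynep. HDAC5 was higher after treatment (log2 ratio −0.71, SE 0.20), a call that was lost without Amy (edgeR adjusted p = 0.104).

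**Figure D5:**
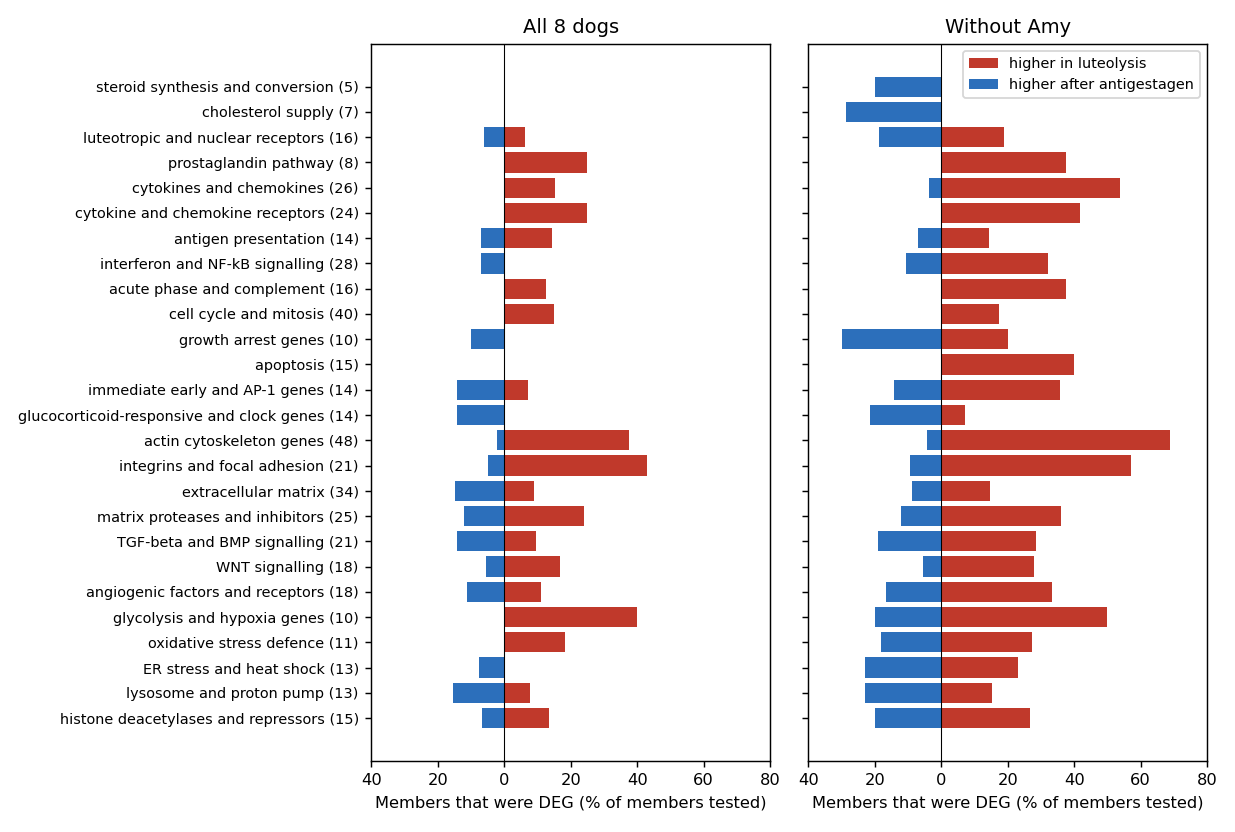
Share of the tested members of each gene list (number tested in brackets) that were DEG, in percent, to the right for higher in luteolysis and to the left for higher after the antigestagen, with all 8 dogs and without Amy. Among named genes as a whole the shares were 14.0% and 7.43% with all dogs and 27.4% and 16.5% without Amy, and genes of the actin cytoskeleton reach 37.5% and 68.8% to the right. Without Senta no member of the 26 pathway lists was a DEG, while the stromal marker CD248 kept its call.

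Markers of other cell types moved with some of these groups of genes, and their part in the results was not tested. Luteal markers with an identifier were INSL3 and PRLR, 2 of the 11 on the list. Of 10 macrophage markers 1 was a DEG, the lysozyme LYZ, at 54.6, 288 and 414 CPM against 41.4, 42.2, 40.5, 71.6 and 42.5 CPM (log2 ratio of 2.40 with SE 0.43, edgeR adjusted p = 0.0181), and their summed level was 535 to 911 CPM in luteolysis and 440 to 1226 CPM in treated dogs. The 4 neutrophil markers summed to 8.41 CPM in Amy, 101 in Kimba and 56.3 in Senta, against 21.1 to 46.1 in treated dogs, and none was a DEG by edgeR (1 with an unadjusted p below 0.05, 1 DEG by DESeq2, 2 by limma-voom). Of 6 markers of T and NK cells the sum was 8.33, 211 and 114 CPM in luteolysis and 9.78 to 21.9 in treated dogs, in Kimba and Senta nearly all of it GZMB, the granzyme of killing lymphocytes. GZMB was at 0.676, 206 and 109.6 CPM against 0.778, 4.41, 2.92, 3.31 and 3.03 CPM (log2 ratio of 5.15 with SE 0.94, edgeR adjusted p = 0.0186). The defining T cell markers CD3E and CD2 went the other way: CD3E was at 0.676, 0.791 and 0.290 CPM and CD2 at 4.2, 1.94 and 2.26 CPM in luteolysis, with log2 ratios of −1.26 (SE 0.69) and −1.38 (SE 0.40), and CD2 was a DEG (edgeR adjusted p = 0.0899). GZMB had a log2 ratio of 4.23 without Kimba.

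Endothelial markers (17) gave 1 DEG, SELP, the selectin that slows leukocytes, at 34.6, 81.5 and 130.1 CPM against 35.4, 47.0, 35.8, 28.7 and 35.5 CPM (log2 ratio of 1.17 with SE 0.33, edgeR adjusted p = 0.0822). Their sum was 883, 1801 and 1701 CPM in luteolysis and 981 to 1783 CPM in treated dogs. Of 6 stromal and pericyte markers, the smooth muscle gene TAGLN and the fibroblast protease FAP rose (log2 ratio 2.32, SE 0.70, and log2 ratio 1.68, SE 0.32) whereas CD248 fell, and the sum was 329, 1470 and 1474 CPM against 325 to 477 CPM. The only B cell marker with an identifier, POU2AF1, was at 0 in Amy and at most 1.51 CPM in any of the 8 dogs. Haemoglobin (HBA) stood at 790.1 CPM in Zeynep and at or below 70.8 CPM in the other 7 dogs.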

How the data were processed

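RNA from the CL of 15 dogs was sequenced after poly-A selection with an unstranded kit, as single reads. The authors aligned reads to CanFam3.1 with STAR 2.5.1b and counted them per gene with featureCounts, after base calling with CASAVA 1.8 and bcl2fastq 1.8.4 per the submitters' processing notes. The deposited table holds counts without normalization, in which values of 10000 and more are rounded to 4 digits. Reads of a gene and an overlapping antisense gene cannot be told apart, and close copies may share reads.

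The counts were scaled by TMM and tested with edgeR 4.0.16 in R 4.3.3, with the 15 dogs in 4 groups in 1 model on the 14922 genes whose mean count reached 10 in some group. P-values were adjusted over the 14473 genes compared. CPM used TMM library sizes, and log2 CPM a prior count of 2. DESeq2 1.42.0 and limma 3.58.1 served as alternatives, and plots were made with matplotlib 3.10.9. Total counts per dog set the counting error, which was small beside the spread between dogs for all but the genes with few reads.

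Symbols came from the identifier and name columns of 4 supplementary lists of the study (2982 of 3261 identifiers). Fold changes and p-values in those lists were not used. Genes named in the text were the 12 DEG of smallest p without overlap in each direction, up to 2 DEG per direction of each gene list, genes the study names for this contrast, and luteal markers, 116 in all, of which some are not reported here. Other genes, among them SPINK5, TIGIT, RDH16, PLAUR, TIMP3, HK2, SLC2A1, TPM1, CDC20, CDK4, COL1A1, FOS, CDKN1A, the genes called only without Amy and the remaining list members, were named after their values had been seen. The gene set compared, the gene lists and the rule were chosen with earlier results of these data known.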

Additional observations from a re-analysis of the deposited data

Results flagged for a closer look

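In 9 of the 116 named genes, 1 of the 5 antigestagen-treated dogs reached the limit of Dixon's ratio of its gap to the nearest dog over the range of the group, both taken on log2 CPM with a prior count of 2. The limit was 0.71. Chance gives such a value in about 1 of 20 groups. Seran had the lowest RRM2, at 0.828 CPM (ratio 0.831), and the lowest HJURP, at 0.237 CPM (ratio 0.721), both genes of dividing cells. Seran also had the highest level of the lysozyme gene LYZ, at 71.6 CPM (ratio 0.915). WNT7A reached the limit (ratio 1.0) only because Seran had 1 read and the other treated dogs 0, so it is no sign of a dog apart. Birnur was highest for ADAMTSL2, at 27.4 CPM (ratio 0.75), and lowest for NT5E, at 1.96 CPM (ratio 0.734). Zeynep was highest for HDAC3, at 95.7 CPM (ratio 0.832), and lowest for SNAP25, at 1.41 CPM (ratio 0.742). Citir was lowest for GZMB, at 0.778 CPM (ratio 0.754). The ratio was not taken for the 3 luteolysis dogs.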

How the results depend on the processing

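The number of DEG depended on the dogs and on the tool. It was 2833 (1596 higher in luteolysis, 1237 higher after the antigestagen) by limma-voom, 1486 (792 and 694) by DESeq2's Wald test and 1477 (788 and 689) with that tool's filters, so that the share higher in luteolysis was 65.8% in edgeR but 56.3%, 53.3% and 53.4% there. With the 8 dogs alone in the model it was 3 (0 and 3), and with an adjusted p below 0.05 it was 268 (197 and 71). Leaving out 1 dog at a time gave 6 (Senta) to 2169 (Amy) DEG, 3 to 1112 higher in luteolysis and 3 to 1057 higher after the antigestagen, with 229 without Kimba, 320 without Birnur and 437 without Zeynep. The share higher in luteolysis was 51.3% without Amy and 55.5% without Citir. Other scaling, robust dispersions, other filters on low counts and the model without the mid-gestation dog Nescafe, whose description gives another group number than its title, gave 559 to 737 DEG. No named gene changed direction under any of these settings. Of the 116 named genes 99 were DEG. Of these, 2 kept the call with the 8 dogs alone, 3 without Senta and 46 without Kimba. Without Amy 7 lost it. The cause was not tested. The groups held different dogs with 1 library each, so a paired analysis did not apply. Few reads limit ANKRD1 in Amy and the treated dogs, and the WNT ligands.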
